A study of Saccharomyces cerevisiae with 6 samples.

Results

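Cyclins are the regulatory subunits that switch on cyclin-dependent kinases, and 10 cyclin genes of the budding yeast Saccharomyces cerevisiae are described here: the G1 cyclins CLN1, CLN2 and CLN3, the Pho85 cyclins PCL1, PCL2 and PCL9, and the B-type cyclins CLB1, CLB2, CLB5 and CLB6. They were taken by symbol from the platform annotation, among probe sets that name 1 gene. All 10 had 1 probe set each, out of 5656 genes so named, and 9 of the 10 were among the 4242 genes tested. CLB6 was among the dim genes left out of the test. Single-colour Affymetrix arrays measured total RNA of cells grown at 30 degrees, with 2 arrays of FHL1-deleted cells (the FHL1 deletion), 2 of cells that lack IFH1 as well (doubly deleted cells, the double deletion) and 2 of wild type (WT). FHL1 encodes a forkhead-like protein bound at ribosomal protein gene promoters, and IFH1 encodes its coactivator there. The labels state neither strain background, medium, selection marker nor growth stage, nor whether the 2 arrays of a strain came from separate cultures, so p-values measure the spread between these samples, which may be technical.

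In budding yeast the cell cycle is driven by the kinase Cdc28. It works with the G1 cyclins before DNA replication and with the B-type cyclins from DNA replication onward. Cln3 acts first and relieves the repressor Whi5 from the transcription factor SBF, which with the related factor MBF turns on CLN1, CLN2, PCL1, PCL2, CLB5, CLB6 and other late G1 genes. CLB1 and CLB2 are transcribed later, at G2/M, by Mcm1 with the forkhead protein Fkh2 and Ndd1. A second kinase, Pho85, has its own cyclins: Pcl1 and Pcl2 act in late G1 on polarity and cell cycle targets, while PCL9 is transcribed at the end of mitosis through the factor Swi5.

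PCL1 rose in both mutants, by 3.57-fold in FHL1-deleted cells and by 3.70-fold in doubly deleted cells. It was the only 1 of the 9 tested cyclins past the threshold in either comparison with WT in the fit without a block. With the array sets described below as a block, a fit added after the data were seen, 4 of 9 passed in each mutant. PCL1, PCL9 and CLB5 passed in both, CLN3 in FHL1-deleted cells and PCL2 in doubly deleted cells. That block called 1767 of all 4242 tested genes in FHL1-deleted cells and 1577 in doubly deleted cells. A share of 4 in 9 is near these backgrounds. PCL2, the close relative of PCL1, and the G1 cyclins CLN1 and CLN2 differed from WT by 0.31 or less on the log2 scale. CLB5 was higher by about 0.4 and PCL9 lower by 0.5 to 0.6, without passing the test in the fit without that block. None of the 9 passed between the double deletion and the FHL1 deletion. All values are log2 signals scaled to a common array median, n = 2 arrays a strain, and SE is that of limma's model, whose adjusted p (Benjamini and Hochberg, over all tested genes, threshold 0.05) is given throughout.

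The deleted genes were read first. IFH1 had 8.91 and 8.92 on the FHL1 deletion arrays, 4.93 and 5.39 on the double deletion arrays and 8.38 and 8.63 on the WT arrays. The values of the double deletion lie under the floor of 5.63 used in the test, which gives at least 7.35-fold less than WT (limma adjusted p = 0.000434). FHL1 lay under that floor on every array, with deposited values of 3.18 and 2.67 in FHL1-deleted cells, 2.66 and 2.89 in doubly deleted cells and 4.91 and 5.02 in WT, so no fold is given.

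The arrays also divide into sets that no label names. Exactly equal deposited values, at 502 to 859 of 9335 probe sets a pair, link 3 arrays, called array set A: that of FHL1-deleted cells labelled second experiment and those of doubly deleted cells and WT labelled first. The remaining arrays, called set B, share at most 1 value with any other. In set B the mutant arrays carry markers of mating type a: summed over 7 MATa markers, the log2 signal was 14.28 in FHL1-deleted cells and 14.07 in doubly deleted cells of set B, against 9.62 on the WT array of that set, and it was 9.55 to 9.80 on the 3 set A arrays. Summed over 4 MATalpha markers it was 9.09 and 9.18 on those mutant arrays and 13.31 to 13.91 on the others. None of the 11 markers lay at the floor on every array. The 3' minus 5' signal of SRB4, a measure of RNA integrity, was 2.39 and 3.09 in FHL1-deleted cells, 2.70 and 1.89 in doubly deleted cells and 2.25 and 1.52 in WT, higher in set A than in set B for each strain. The same measure for ACT1 was 1.15 and 1.08 in FHL1-deleted cells, 1.07 and 1.02 in doubly deleted cells and 0.97 and 0.93 in WT, so it was higher on all 4 mutant arrays than on either WT array. Each mutant therefore has 1 comparison with WT between arrays of like mating type (set A) and 1 between unlike ones (set B), and both are given below. The part of mating type, array set and RNA integrity in the differences was not tested apart. Where array set is used as a block, the fit assumes 1 shift between the sets that all strains share. Mating type differs between the sets only in the mutants, so calls made with that block carry this limit.

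**Figure D1:**
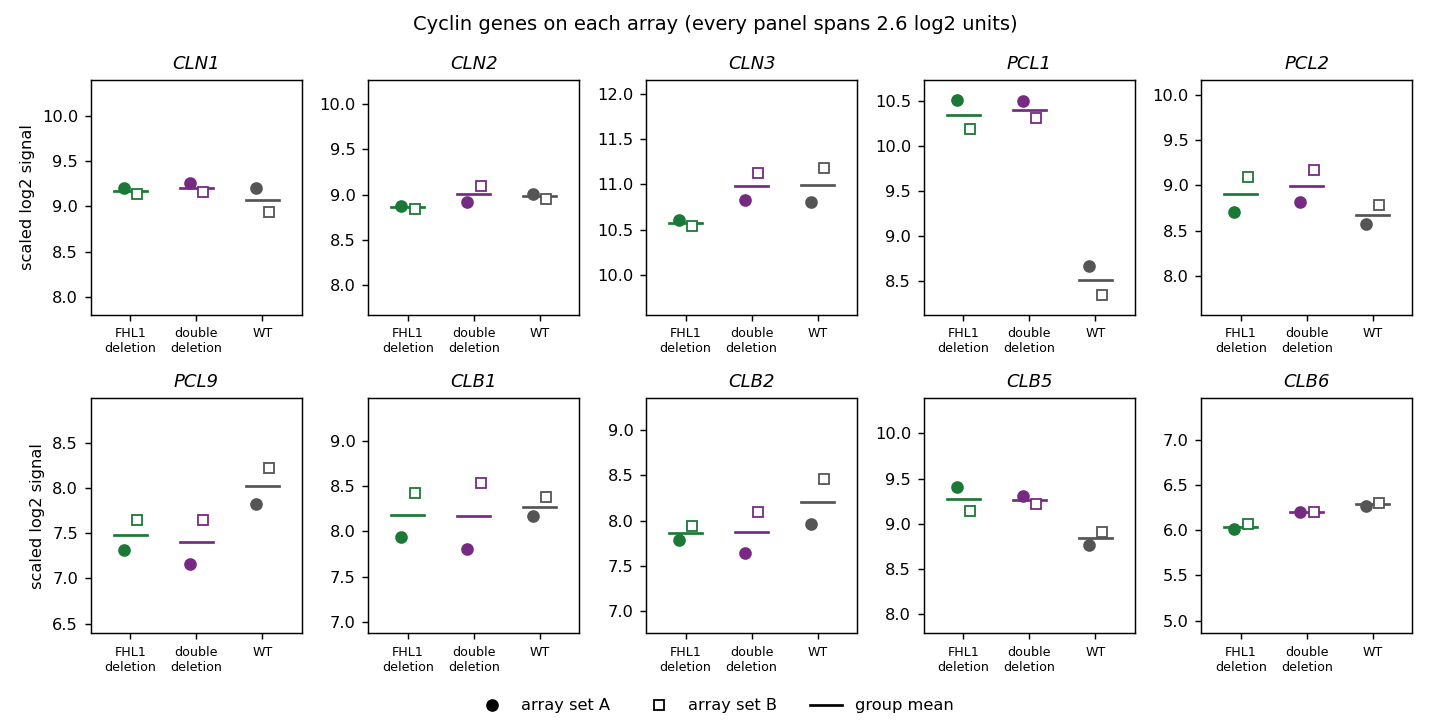
Scaled log2 signal (y axis) of each of the 10 cyclin genes on every array of the FHL1 deletion, the double deletion and WT (x axis); filled circles are arrays of set A, open squares arrays of set B, and lines are group means of 2 arrays. PCL1 lies between 10.18 and 10.51 on the 4 mutant arrays, above 8.67 and 8.35 on the WT arrays, and the remaining genes differ by less between strains.

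PCL1 (YNL289W, chromosome XIV) encodes a cyclin that directs Pho85 to late G1 targets. It had 10.18 and 10.51 in FHL1-deleted cells, 10.49 and 10.31 in doubly deleted cells, and 8.67 and 8.35 in WT. All 4 mutant arrays lay above both WT arrays by more than the spread of any strain. The rise of PCL1 in FHL1-deleted cells was 1.83 (SE 0.18, adjusted p = 0.00278). In the double deletion it was 1.89 (SE 0.18, adjusted p = 0.00225). In both comparisons it was the 17th largest rise of 4242 tested genes. The rise was as large within either array set, at 1.84 in set A and 1.83 in set B for the FHL1 deletion and at 1.82 and 1.95 for the double deletion. It passed under all 18 alternatives tried, with values between 1.67 and 1.998 in FHL1-deleted cells and between 1.73 and 2.05 in doubly deleted cells. The genes on either side of PCL1 in the RefSeq R64 gene order, named for their position, did not pass in FHL1-deleted cells: RFC3, a clamp loader subunit gene, differed by 0.18 (adjusted p = 0.5) and CAF40, a gene of the CCR4-NOT complex, by -0.22 (adjusted p = 0.308). One gene further out, MID1 differed by -0.25 (adjusted p = 0.267), while SEC21, a gene of the COPI coat, fell by 0.49 (adjusted p = 0.0332).

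PCL2 (YDL127W, chromosome IV), which encodes the Pho85 cyclin most related to Pcl1, had 9.09 and 8.71 in FHL1-deleted cells, 8.81 and 9.17 in doubly deleted cells, and 8.57 and 8.79 in WT. The FHL1 deletion overlapped WT, and the double deletion lay above it by a margin smaller than its own spread. The differences from WT were 0.22 (SE 0.19, adjusted p = 0.449) in FHL1-deleted cells and 0.31 (SE 0.19, adjusted p = 0.306) in doubly deleted cells. Their 95% intervals end at 0.68 and 0.77, below the lower ends of the PCL1 intervals at 1.41 and 1.46; the gap between the 2 genes was not itself tested. With array set as a block PCL2 passed in doubly deleted cells (adjusted p = 0.0482).

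PCL9 (YDL179W, chromosome IV), a Pho85 cyclin gene of the M/G1 boundary, had 7.65 and 7.32 in FHL1-deleted cells, 7.16 and 7.64 in doubly deleted cells, and 7.83 and 8.22 in WT. Both mutants lay below both WT arrays. It was lower by 0.54 in FHL1-deleted cells (-0.54, SE 0.23, adjusted p = 0.138) and by 0.62 in doubly deleted cells (-0.62, SE 0.23, adjusted p = 0.107), so neither difference passed. The within-set differences were close to each other, at -0.51 in set A and -0.58 in set B for the FHL1 deletion and at -0.67 and -0.58 for the double deletion. With array set as a block PCL9 passed in both mutants (adjusted p = 0.00809 and 0.0057).

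**Figure D2:**
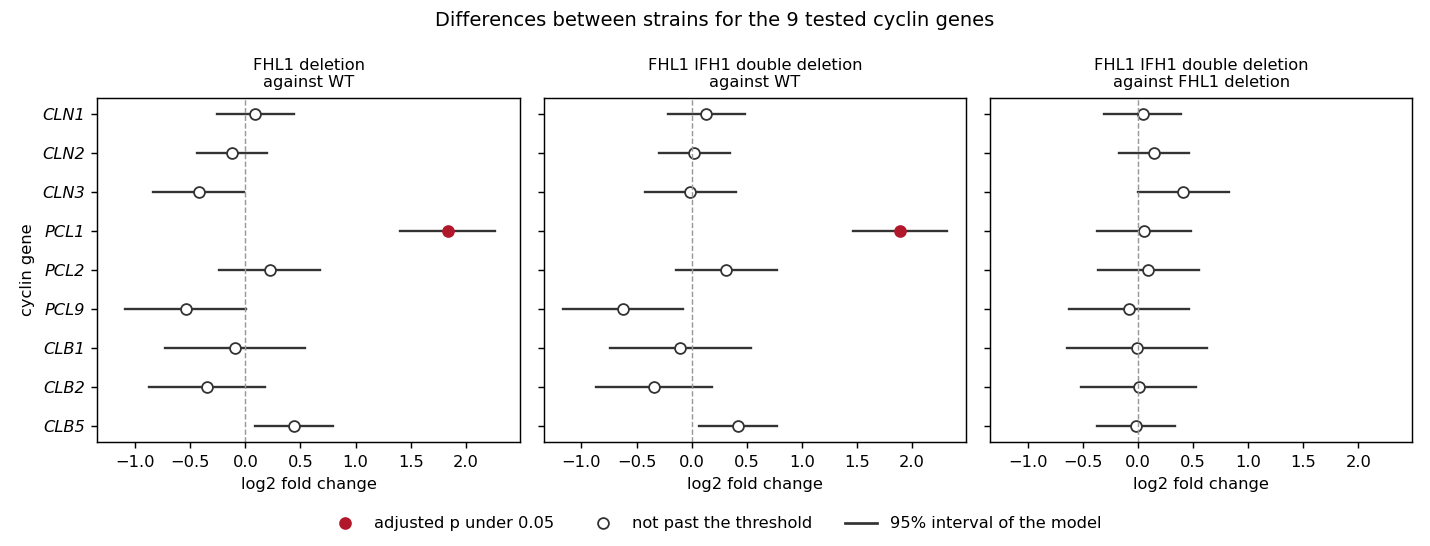
Log2 fold change (x axis) of the 9 tested cyclin genes (y axis) in the 3 comparisons, with the 95% interval of limma's model as a line and filled points where the adjusted p is under 0.05. PCL1 stands at 1.83 and 1.89 against WT and at 0.05 between the mutants, and all intervals between the mutants include 0.

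Of the 9 tested cyclins, 1 rose and none fell in FHL1-deleted cells, where 12.9% of all tested genes rose and 8.42% fell (21.3% in either direction). In the double deletion again 1 rose and none fell, against 9.78% and 8.46% of all tested genes (18.2% in either direction). A share of 1 in 9 is near these backgrounds. At an unadjusted p under 0.05 there were 3 of 9 in each comparison, beside 36.7% and 33.4% of tested genes. In the scaling as deposited, which moves the median of all tested genes in FHL1-deleted cells to 0.13 against 0.02 in the scaled data, 769 genes rose and 267 fell there, against 546 and 357 when scaled; in doubly deleted cells 521 rose and 269 fell, against 415 and 359. Groups of arrays did not overlap for 6 of the 9 cyclins in FHL1-deleted cells (63.6% of all tested genes) and for 4 of 9 in doubly deleted cells (60.9%). The median difference of the 9 was -0.09 and 0.03, beside 0.02 and 0.01 over all tested genes.

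The G1 cyclins that bind Cdc28 showed small differences. CLN1 (YMR199W, chromosome XIII) had 9.13 and 9.20 in FHL1-deleted cells, 9.26 and 9.16 in doubly deleted cells, and 9.21 and 8.94 in WT. The 3 strains overlapped. The differences from WT were 0.09 (95% interval -0.26 to 0.44, adjusted p = 0.697) in FHL1-deleted cells and 0.13 (-0.21 to 0.48, adjusted p = 0.572) in doubly deleted cells.

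CLN2 (YPL256C, chromosome XVI), the partner of CLN1 in late G1, had 8.84 and 8.88 in FHL1-deleted cells, 8.92 and 9.09 in doubly deleted cells, and 9.01 and 8.95 in WT. The FHL1 deletion arrays lay below the WT arrays by about 0.1. The differences were -0.12 (-0.44 to 0.20, adjusted p = 0.562) in FHL1-deleted cells and 0.03 (-0.29 to 0.34, adjusted p = 0.916) in doubly deleted cells. CLN2 is one of the probe sets with equal deposited values: it stands at 8.94 on all 3 arrays of set A, so its differences of -0.13 and -0.09 within that set come from the scaling alone. The intervals of CLN1 and CLN2 exclude changes as large as that of PCL1, which is transcribed with them in late G1.

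CLN3 (YAL040C, chromosome I), the G1 cyclin that acts upstream of SBF, had 10.54 and 10.60 in FHL1-deleted cells, 10.83 and 11.13 in doubly deleted cells, and 10.81 and 11.18 in WT. The FHL1 deletion lay below all arrays of both other strains, which overlapped each other. It was lower than WT by 0.42 in FHL1-deleted cells (-0.42, SE 0.18, adjusted p = 0.127) and differed by -0.01 (SE 0.18, adjusted p = 0.962) in doubly deleted cells. Between the double deletion and the FHL1 deletion the difference was 0.41 (95% interval -0.0037 to 0.82, adjusted p = 0.974), the largest among the 9 cyclins in that comparison. The gap to WT in FHL1-deleted cells, -0.20 within set A against -0.65 within set B, passed with array set as a block (adjusted p = 0.0429). It did not pass under any of the other 17 alternatives.

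None of the 3 tested B-type cyclins passed in the fit of scaled values without a block. CLB5 (YPR120C, chromosome XVI), whose product with Cdc28 triggers replication origins, had 9.15 and 9.41 in FHL1-deleted cells, 9.31 and 9.22 in doubly deleted cells, and 8.77 and 8.91 in WT. All mutant arrays lay above the WT arrays. The differences were 0.44 (SE 0.15, adjusted p = 0.0781) in FHL1-deleted cells and 0.42 (SE 0.15, adjusted p = 0.0945) in doubly deleted cells. They were larger in set A, at 0.64 and 0.54, than in set B, at 0.24 and 0.31. CLB5 passed in both mutants with array set as a block (adjusted p = 0.0286 and 0.0354), and in FHL1-deleted cells also in the deposited scaling (0.55, adjusted p = 0.0425).

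CLB6 (YGR109C, chromosome VII), the other S phase cyclin, had 6.07 and 6.01 in FHL1-deleted cells, 6.20 and 6.20 in doubly deleted cells, and 6.27 and 6.30 in WT. These values are above the floor of 5.63 but among the 25% of genes with the lowest signal. Its 3 strains did not overlap, in steps of 0.16 and 0.09 between strain means. With no filter on dim genes it was tested, and differed by -0.25 (SE 0.03, adjusted p = 0.0217) in FHL1-deleted cells and by -0.09 (SE 0.03, adjusted p = 0.111) in doubly deleted cells. That fit called 742 of 5656 genes in FHL1-deleted cells and 461 in doubly deleted cells. Its SE for CLB6 is far below the 0.14 of CLN2 in the filtered fit, and the reason was not tested. The call of CLB6 is therefore a shift of a dim gene in 1 setting only.

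CLB2 (YPR119W, chromosome XVI), the main mitotic cyclin gene, lies next to CLB5 in the RefSeq gene order, and 14 protein-coding genes separate it from the FHL1 locus. It had 7.94 and 7.79 in FHL1-deleted cells, 7.65 and 8.09 in doubly deleted cells, and 7.96 and 8.46 in WT. The WT arrays differed from each other by 0.50, more than either mutant mean differed from the WT mean. The differences were -0.35 (SE 0.22, adjusted p = 0.306) and -0.34 (SE 0.22, adjusted p = 0.332), while the neighbour CLB5 was higher in the same arrays.

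CLB1 (YGR108W, chromosome VII), the relative of CLB2 and neighbour of CLB6, had 8.43 and 7.94 in FHL1-deleted cells, 7.81 and 8.54 in doubly deleted cells, and 8.17 and 8.38 in WT. Each mutant had 1 array above and 1 below the WT arrays. The differences were -0.09 (95% interval -0.73 to 0.54, adjusted p = 0.843) and -0.10 (-0.74 to 0.53, adjusted p = 0.831), the widest intervals of the 9 cyclins.

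**Figure D3:**
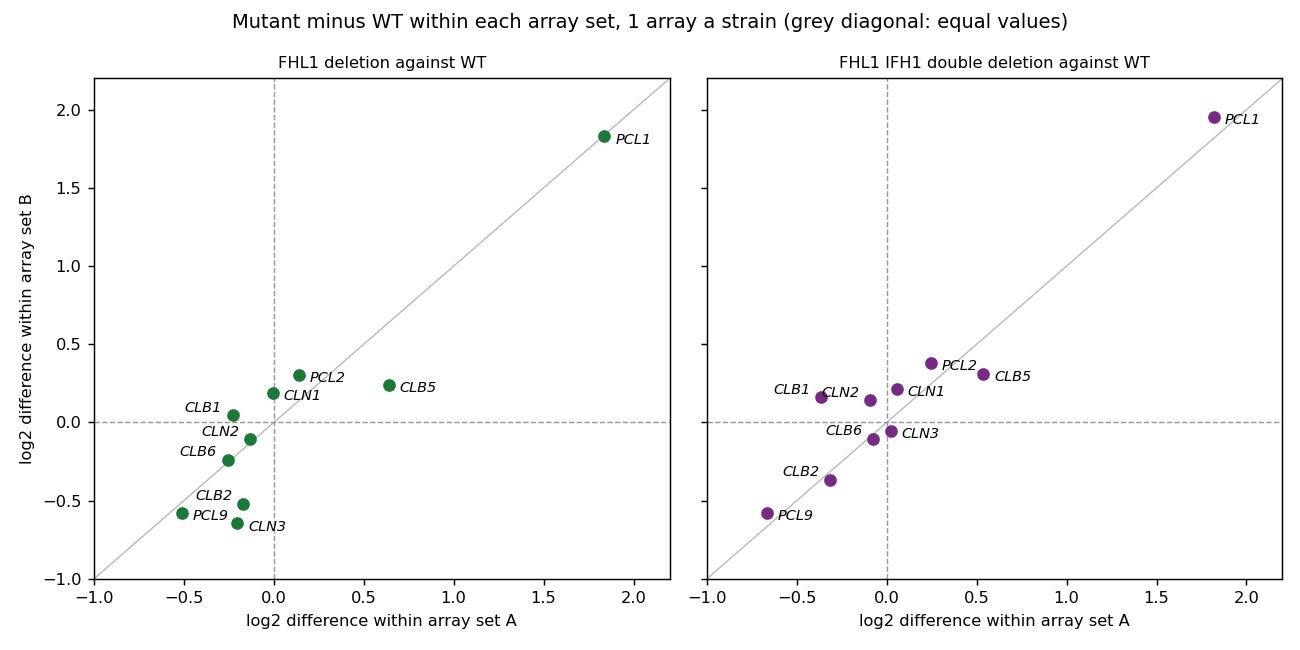
Log2 difference between a mutant array and the WT array of the same set, in set A (x axis) and set B (y axis), for the 10 cyclin genes; the left panel shows the FHL1 deletion, the right panel the double deletion, and the grey diagonal marks equal differences. PCL1 lies near the diagonal at 1.84 and 1.83 and at 1.82 and 1.95, PCL9 is below 0 in both sets, and CLB1 is below 0 in set A and above 0 in set B.

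Many tested genes differed between the array sets in one direction in all 3 strains, and several cyclins were among them. With 9 tested cyclins, their counts are not read as a trait of the cyclins. PCL2, PCL9, CLB1 and CLB2 were higher in set B than in set A in each strain (4 of 9 tested cyclins, against 25.9% of tested genes), and PCL1 and CLN1 were lower (2 of 9, against 29.8%). Among the cyclins the difference between sets in the mutants was largest for CLB1, at 0.49 in FHL1-deleted cells and 0.73 in doubly deleted cells, where set B carries the MATa markers, against 0.21 in WT, where both arrays carry MATalpha markers. Its relative CLB2 went the other way, at 0.15 and 0.45 in the mutants against 0.50 in WT. So did CLN3, at -0.07 and 0.30 against 0.37. Among all tested genes, 90% differed between the sets by less than 0.48 in either mutant. For PCL9 the differences were 0.33, 0.48 and 0.40 in FHL1-deleted cells, the double deletion and WT, and for PCL2 0.38, 0.35 and 0.22. The set and the mating type of the mutant arrays cannot be told apart.

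Between the double deletion and the FHL1 deletion, which asks what loss of IFH1 adds, 0 of 9 cyclins passed with limma, also 0 at an unadjusted p under 0.05 (5.02% of tested genes). Only 0.0236% of tested genes, IFH1 itself, were called. PCL1 differed by 0.05 (95% interval -0.38 to 0.48), PCL9 by -0.08 (-0.63 to 0.47) and CLB5 by -0.02 (-0.37 to 0.34). Arrays of the 2 strains did not overlap for CLN2 and CLN3, 2 of 9 tested cyclins, beside 31.6% of tested genes. Both comparisons with WT share its 2 arrays, so the 2 rises of PCL1 against WT are not independent measurements.

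Other cyclin genes and the kinases they serve gave 1 call, on arrays where 21.3% and 18.2% of all tested genes were called in the FHL1 deletion and the double deletion. Of 9 further cyclins with a probe set 6 were tested and none passed in either mutant (median -0.05 in FHL1-deleted cells and -0.06 in doubly deleted cells). Of 9 kinases and regulators, none passed in FHL1-deleted cells and CKS1 fell in doubly deleted cells. CKS1, the small subunit that binds Cdc28, had 9.16 and 9.20 in FHL1-deleted cells, 8.89 and 9.20 in doubly deleted cells, and 9.62 and 9.66 in WT. It fell by 0.59 (SE 0.15, adjusted p = 0.0381) in doubly deleted cells and differed by -0.46 (SE 0.15, adjusted p = 0.0708) in FHL1-deleted cells; the call was lost without any 1 of the double deletion or WT arrays, with values of -0.75 to -0.44. The kinase genes themselves, named after their values were seen, were not past the threshold: PHO85 differed by 0.30 (adjusted p = 0.167) and 0.28 (adjusted p = 0.206), and CDC28 by 0.58 (adjusted p = 0.115) and 0.59 (adjusted p = 0.124), in FHL1-deleted cells and the double deletion. Named in the same way, PHO81 differed by -0.80 (adjusted p = 0.0614) and -0.53 (adjusted p = 0.192). FAR1 differed by -0.53 (adjusted p = 0.339) and -0.83 (adjusted p = 0.163). Of the 9 genes, 6 lay above 0 and 3 below in each mutant.

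Of 10 listed G1/S regulators 7 were tested, and SWI4, WHI5 and XBP1 were among the dim genes left out. Within sets A and B, WHI5 differed from WT by -1.85 and -2.005 in FHL1-deleted cells. In doubly deleted cells it differed by -0.93 and -0.79. In the same order, XBP1 differed by 1.21 and 2.12, and by 1.59 and 2.27. SWI4 differed by -0.09 and 0.07, and by -0.28 and 0.14. Each value compares 1 array with 1 array for a dim gene, and the filtered fit did not test these differences. Of the 7 tested, 1 rose in each mutant and none fell. It was MSA2, which encodes an activator of SBF and MBF targets. Of all tested genes 12.9% and 9.78% rose. MSA2 had 8.53 and 8.73 in FHL1-deleted cells, 8.65 and 8.82 in doubly deleted cells, and 7.69 and 7.52 in WT. All mutant arrays were above the WT arrays, and its rise was 1.03 in FHL1-deleted cells (SE 0.15, adjusted p = 0.00591) and 1.13 in doubly deleted cells (SE 0.15, adjusted p = 0.00589). Its relative MSA1, named after its values were seen, differed by -0.25 (adjusted p = 0.32) and 0.01 (adjusted p = 0.974).

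Among 30 tested G1/S target genes, the FHL1 deletion gave 2 rises and 3 falls and the double deletion 3 rises and 3 falls, around medians of -0.14 and -0.15. These are 5 and 6 of 30 called, near the 21.3% and 18.2% of all tested genes. SVS1, a gene of a cell wall protein, had 12.12 and 12.18 in FHL1-deleted cells, 12.50 and 12.23 in doubly deleted cells, and 10.94 and 10.93 in WT. SVS1 rose by 1.22 (SE 0.13, adjusted p = 0.00283) and 1.43 (SE 0.13, adjusted p = 0.00207). TOS6, a cell wall protein gene, was higher by 0.75 in FHL1-deleted cells (adjusted p = 0.00556) and by 0.90 in doubly deleted cells (adjusted p = 0.00379); the third rise in doubly deleted cells, YOX1, encodes a repressor and reached 0.78 (adjusted p = 0.0421). The falls included CDC9, the DNA ligase gene of replication, with 8.26 and 8.27 in FHL1-deleted cells, 8.40 and 8.30 in doubly deleted cells, and 8.98 and 9.29 in WT. CDC9 differed from WT by -0.87 in FHL1-deleted cells (SE 0.15, adjusted p = 0.0107) and by -0.78 in doubly deleted cells (SE 0.15, adjusted p = 0.0175), both falls past the threshold. Without the second WT array neither fall of CDC9 passed (-0.71, adjusted p = 0.0727, and -0.63, adjusted p = 0.0948). The fall in doubly deleted cells was also lost without the first (-0.84, adjusted p = 0.0528) or the second double deletion array (-0.73, adjusted p = 0.0769).

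**Figure D4:**
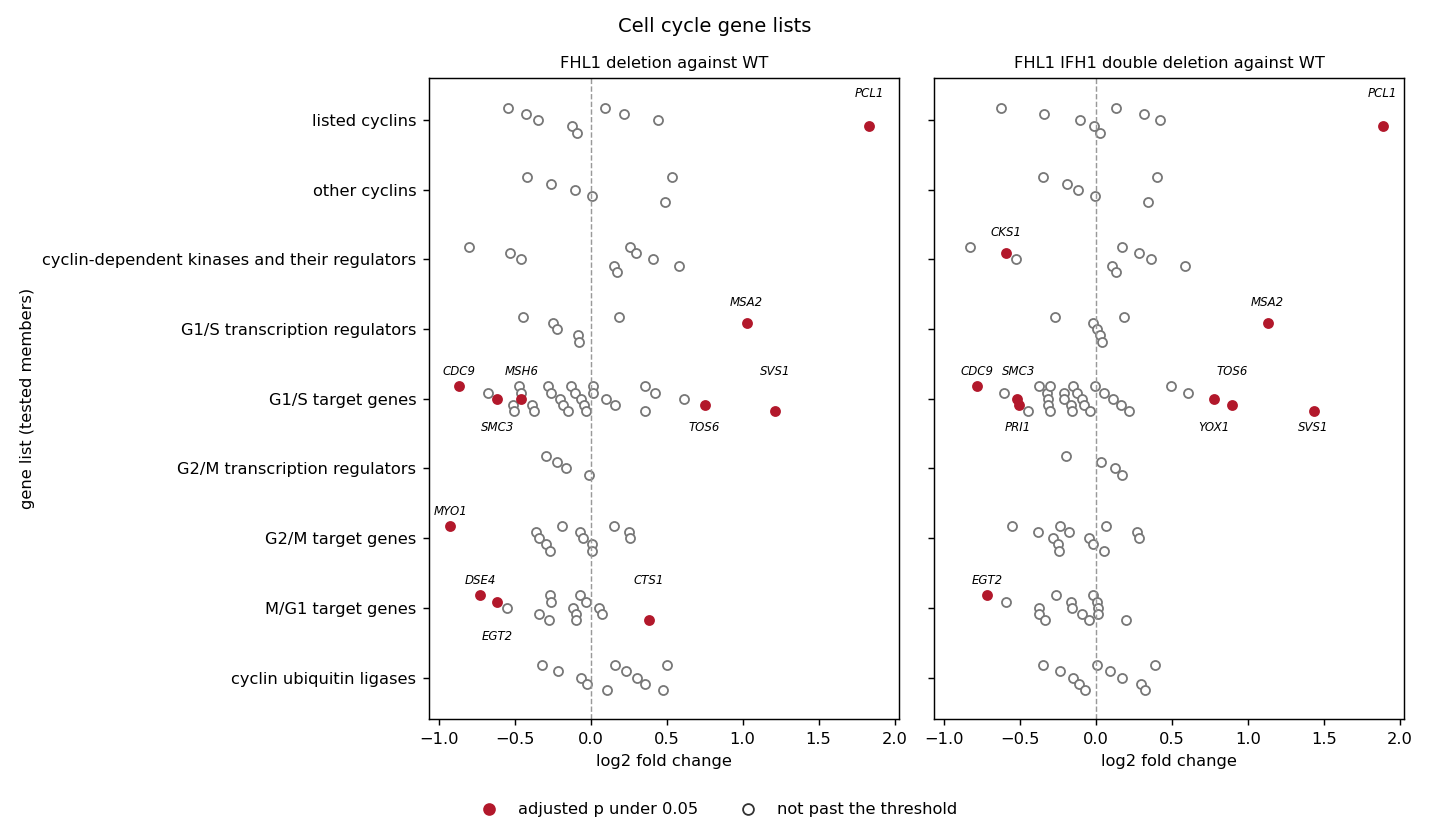
Log2 fold change against WT (x axis) of the tested members of 9 cell cycle gene lists (y axis), 1 point a gene spread vertically for legibility, in FHL1-deleted cells (left) and the double deletion (right); filled, named points have an adjusted p under 0.05. PCL1 at 1.83 and 1.89 lies farthest from 0, MSA2, SVS1 and TOS6 lie above 0 in both panels, and CDC9, SMC3 and EGT2 lie below 0 in both.

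The later cell cycle lists are read beside the same shares of all tested genes, 21.3% called in FHL1-deleted cells and 18.2% in doubly deleted cells. None of the 4 G2/M regulator genes, FKH1, FKH2, NDD1 and MCM1, passed, with medians of -0.19 and 0.08. Of 13 tested G2/M targets, MYO1, the myosin heavy chain gene of the contractile ring, fell by 0.92 (SE 0.17, adjusted p = 0.013) in FHL1-deleted cells and none passed in doubly deleted cells. MYO1 has 8 probe sets, and with the probe sets of plain suffix alone it differed by -0.15 (adjusted p = 0.634). Without the first or the second WT array it did not pass either (adjusted p = 0.0506 and 0.0812). Of 15 tested M/G1 genes, the period in which PCL9 is transcribed, DSE4 and EGT2, which act in daughter cell separation, fell in FHL1-deleted cells by 0.73 (adjusted p = 0.0443) and 0.62 (adjusted p = 0.0379), and the chitinase gene CTS1 rose by 0.38 (adjusted p = 0.0456). EGT2 also fell in doubly deleted cells, by 0.72 (adjusted p = 0.0281). Leaving out any 1 of the 4 arrays compared ended these M/G1 calls, except that DSE4 still passed without the first FHL1 deletion array; where calls ended, the values ranged from -0.87 to -0.45 for DSE4 and EGT2 and from 0.28 to 0.49 for CTS1. None of the 11 tested ubiquitin ligase genes that act on cyclins passed in either mutant.

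The genes whose pattern over the 6 arrays was most like that of PCL1, by Pearson correlation among the tested genes, were HBT1 (r = 0.998), ARO10 (r = 0.998) and SAP30 (r = 0.997), and 459 genes had r over 0.9. The 6 arrays share the division into mutants and WT, so these values describe the arrays only. HBT1, a gene of polarized cell shape, had 8.73 and 8.98 in FHL1-deleted cells, 8.88 and 8.78 in doubly deleted cells, and 7.67 and 7.35 in WT. ARO10, the phenylpyruvate decarboxylase gene, was higher than WT by 1.57 in each mutant, and SAP30, a gene of the Rpd3 histone deacetylase complex, by 1.08 and 1.02.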

How the data were processed

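The table deposited by the authors holds log2 expression values of 9335 probe sets on 6 arrays. Their log2 scale was inferred from the values; how they were summarized and normalized, and the genome build, are not stated in the labels or the table, so no coordinates are printed. The platform annotation gave 6504 probe sets a single gene, and the brightest on average stood for a gene with several. Array medians over these probe sets were made equal, a floor was set at the 10th percentile (5.63), and the dimmest 25% of genes were not tested. Gene names and order come from RefSeq (R64).

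limma 3.58.1 in R 4.3.3 was run with 1 mean a strain over all 6 arrays (3 residual degrees of freedom) and a trend of spread on signal, and was tested on simulated data. The 2 arrays a strain limit the precision. The experiment numbers do not pair the arrays of all 3 strains. By number, deviations from strain means correlated across 4242 genes at 0.42 between the double deletion and WT. They correlated at -0.38 between the FHL1 deletion and WT and at -0.63 between both mutants. Alternatives covered scaling, floor, filter, probe sets, blocks, arrays used, trend and each array left out. The cyclins, the lists and the rule for named genes (all 10 cyclins, the deleted genes, up to 3 called members a list with the smallest p, and the 3 genes most like a called cyclin) were chosen with earlier results of these data known; other genes were named after their values were seen. Probe sequences were not used here, so cross-hybridization between related cyclins was not checked.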

Additional observations from a re-analysis of the deposited data

How the results depend on the processing

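The call of PCL1 in both mutants held under all 18 alternatives. The count of called cyclins changed under 3 of them: in the FHL1 deletion it was 2 in the deposited scaling (PCL1 and CLB5), 2 with no filter (PCL1 and CLB6) and 4 with array set as a block, and in the double deletion it was 4 with that block (PCL1, PCL2, PCL9 and CLB5; CLN3 in place of PCL2 in the FHL1 deletion). Leaving out each array in turn kept it at 1 in either mutant, and at 0 between the mutants. With the experiment number as a replicate block the count was likewise 1, 1 and 0, and PCL1 rose by 1.83 (adjusted p = 0.0104) and 1.89 (adjusted p = 0.00866); over all genes that block gave 505 and 315 calls in the FHL1 deletion and the double deletion, against 903 and 774 without it. The numbers of the FHL1 deletion appear crossed against those of WT and the double deletion. Arrays were therefore also matched by array set, which gave 1767 and 1577 calls. This matching was chosen after seeing the data. Over all genes the FHL1 deletion gave 593 and 469 calls without its first and its second array, the double deletion 325 and 285 without its own and 461 with no filter, and the 2 mutants 252 and 153 without the second WT array and 332 and 226 without the first. Between the mutants there were 34 calls without the first FHL1 deletion array, 5 with the array set block, 2 without the first double deletion array and 0 with the lowest 50% of genes left out, against 1 otherwise. Of 477 values of cyclins under alternatives, 27 had another sign than the reported one, all for differences of 0.10 or less that were not called. Among the other named genes 46 values fell short of the threshold, most for CTS1 (10), EGT2 (8 and 7), CKS1 (7) and DSE4 (6). The cause of these changes was not tested, and signal over background limits CLB6 and FHL1.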
